A study of Mus musculus with 8 samples.

Results

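The 10 genes described here encode feedback regulators and Ets-family targets of Ras-ERK signalling, and they were chosen by name from a table of 34745 genes. They are the ERK phosphatases Dusp4, Dusp5 and Dusp6, the Sprouty genes Spry1, Spry2 and Spry4, the Spred genes Spred1 and Spred2, and the Ets transcription factors Etv4 and Etv5. RNA was sequenced from livers of age-matched male mice that had all received diethylnitrosamine (DEN), a carcinogen activated by hepatocytes, and tissue was taken 8 months later. Controls had been injected with the pT3 plasmid alone (called vector), and the others with pT3 encoding mouse APOBEC3B, which the sample titles write as mA3. The sample titles carry the numbers 1 and 9 under vector and 1 and 2 under mA3, which were taken as 4 separate animals. A tumour and a piece of relatively normal liver, called adjacent, were sequenced from each, so every one of the 4 groups holds 2 libraries. The labels give neither the strain nor the promoter in the plasmid, and mice without DEN were not analysed here, so adjacent liver is itself carcinogen-exposed tissue.

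In this pathway, growth factors activate receptor tyrosine kinases, which load Ras with GTP. Ras then drives the kinases Raf, MEK and ERK in turn. ERK induces genes whose products dampen the same route, and the messenger RNA of these feedback genes is therefore often read as a trace of pathway output. In mice, DEN liver tumours frequently carry activating mutations of Hras or Braf. Neither mutations nor ERK phosphorylation were measured here.

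Promoter letters are shown for 3 genes: Dusp5, which had the largest tumour difference of the 10, Dusp6, the phosphatase with the highest level in adjacent liver, and Spry2, the Sprouty gene with the largest tumour difference. They are the bases before the RefSeq start (build GRCm38.p6), 5′ to 3′ on the gene's strand, at chr19:53528895-53529108 (plus strand), chr10:99262981-99263230 (plus strand) and chr14:105896820-105897069 (minus strand). Capitals mark CArG boxes, the binding motif of serum response factor, and CGGAAG, an Ets motif, read on either strand (CTTCCG on the other).
Dusp5: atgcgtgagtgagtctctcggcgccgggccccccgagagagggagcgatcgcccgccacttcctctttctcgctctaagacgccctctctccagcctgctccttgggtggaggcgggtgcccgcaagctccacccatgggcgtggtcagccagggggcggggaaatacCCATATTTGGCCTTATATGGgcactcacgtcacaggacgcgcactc
Dusp6: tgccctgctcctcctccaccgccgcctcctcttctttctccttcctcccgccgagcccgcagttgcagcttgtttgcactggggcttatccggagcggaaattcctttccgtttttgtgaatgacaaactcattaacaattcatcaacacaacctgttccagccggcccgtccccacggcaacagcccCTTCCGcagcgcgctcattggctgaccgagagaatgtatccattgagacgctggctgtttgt
Spry2: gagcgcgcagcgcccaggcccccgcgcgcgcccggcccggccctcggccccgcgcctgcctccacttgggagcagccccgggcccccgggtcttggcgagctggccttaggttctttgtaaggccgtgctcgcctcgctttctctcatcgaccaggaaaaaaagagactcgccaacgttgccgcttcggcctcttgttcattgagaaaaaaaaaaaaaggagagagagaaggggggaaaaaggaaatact

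The Dusp5 window held 2 CArG boxes end to end, CCATATTTGG at 82 to 73 and CCTTATATGG at 72 to 63 bases before the RefSeq start. A CArG box was present in 1.47% of 32851 mouse promoter windows of 250 bases, and 6 of those windows held 2 or more. None of the other member windows held one, among the 8 windows examined for 7 of the 10 genes. No window of Dusp4, Spry4 or Etv4 was examined. CGGAAG was present once in each of the Dusp6, Spred1 and Spred2 windows, against 13.6% of all windows. The shorter Ets core GGAA was in 93.4% of all windows and so separates few promoters. The cyclic-AMP response element TGACGTCA (1.55% of windows) and the AP-1 motif TGANTCA (6.75%) were in none of the member windows. These matches describe letters in a window, and no binding was measured.

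All 10 genes passed the filter on low counts in the 8 libraries, whose total counts ran from 12969929 to 22882531. In tumours against adjacent liver over both plasmids, Dusp4, Dusp5, Spry2, Spred2, Etv4 and Etv5 rose. These are 6 of 10 genes at an adjusted p under 0.05 (edgeR quasi-likelihood test, adjusted over 15009 genes), where 4.64% of all genes were called and 2.94% were called higher. All 10 log2 differences were above 0 with a median of 1.55, while 50.5% of all genes lay above 0 and the median of all genes was 0.01. At an unadjusted p under 0.05, 8 of the 10 were higher, against 11.9% of all genes. In 5 of the 10, every tumour lay above every adjacent library, against 6.81% of all genes. The 10 genes were chosen with earlier results of these data known. The shares of all genes are therefore a background for description, and the contrast with them is not an independent test. In bulk tissue, fewer cells of a type and less RNA per cell cannot be told apart.

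**Figure D1:**
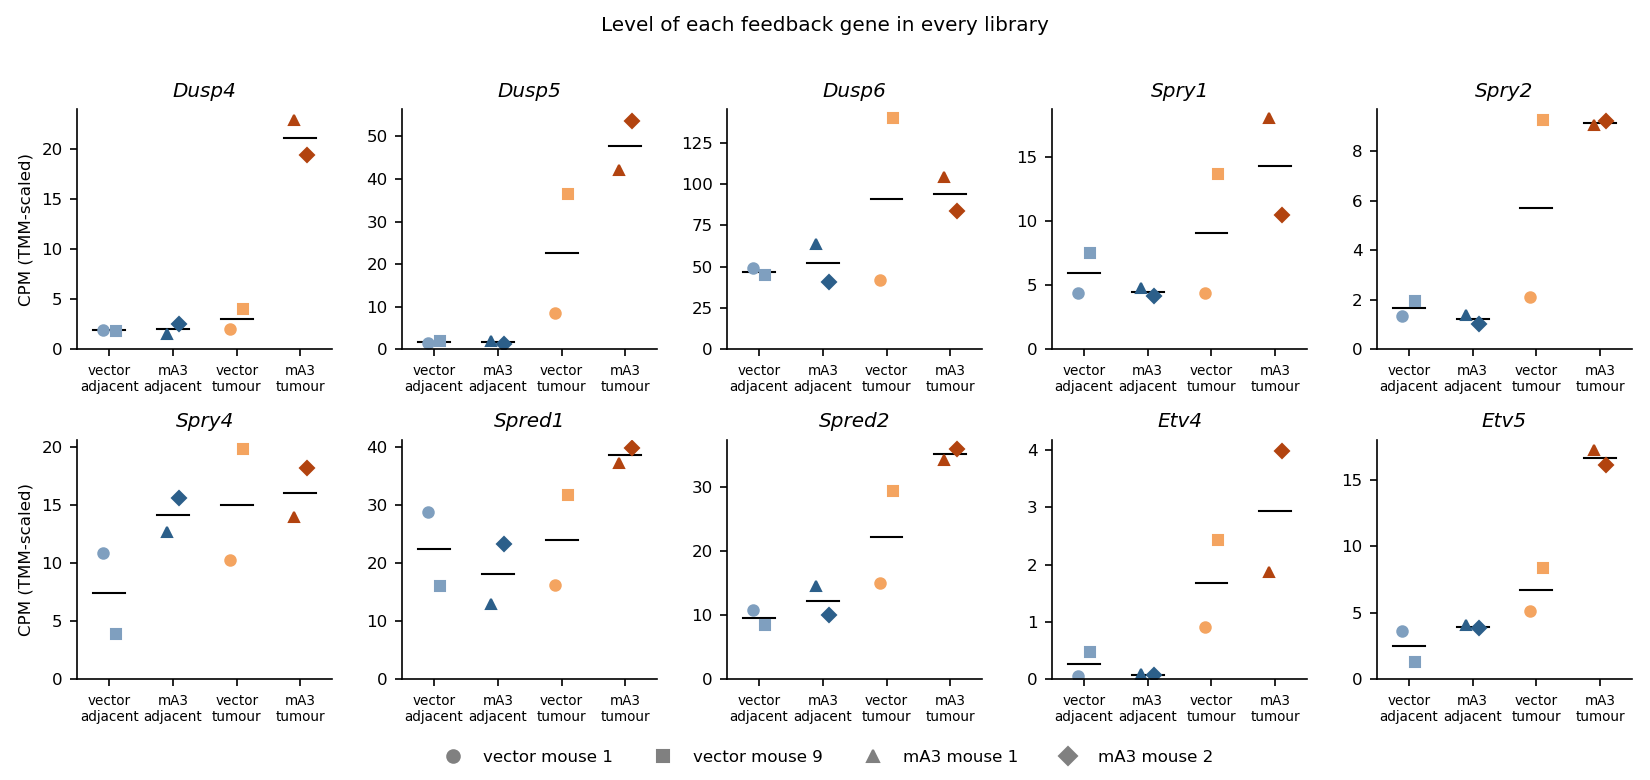
Level of each of the 10 genes in every library, as CPM on a linear axis, with vector and mA3 mice and adjacent liver and tumour marked separately. Dusp5 separates completely, from 1.17 to 1.96 CPM in adjacent liver and from 8.48 to 53.7 CPM in tumours, whereas Dusp6 and Spry4 overlap.

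The phosphatases remove the activating phosphates from ERK. Dusp5 (chromosome 19, 53529109 to 53542431, plus strand, positions as deposited and matching GRCm38) encodes a phosphatase of the nucleus that acts on ERK. Its level was 1.30 and 1.96 CPM in vector adjacent 1 and 9, 1.92 and 1.17 CPM in mA3 adjacent 1 and 2, 8.48 and 36.5 CPM in vector tumour 1 and 9, and 42.0 and 53.7 CPM in mA3 tumour 1 and 2. CPM here means counts brought to equal library size after TMM scaling. Every tumour was above every adjacent library, and vector tumour 1 was the lowest tumour. The means were 1.59 ± 0.410 CPM in adjacent liver and 35.2 ± 19.2 CPM in tumour (SD, n = 4 each), and the fitted log2 difference was 4.36 ± 0.50 (SE, adjusted p = 0.0139), or 20.6-fold. By p it ranked 20 among the 15009 genes. GENCODE places an antisense gene across 547 of its 2473 exon bases. Whether reads were assigned by strand is not given in the sources used here, so reads of the antisense gene could be counted with Dusp5.

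Dusp4 (chromosome 8, 34807297 to 34819894, plus strand) encodes a nuclear phosphatase of ERK and the stress kinases. It measured 1.91 and 1.80 CPM in vector adjacent 1 and 9, 1.52 and 2.47 CPM in mA3 adjacent 1 and 2, and 2.01 and 3.98 CPM in vector tumour 1 and 9. In mA3 tumours 1 and 2 it measured 22.9 and 19.4 CPM. The tumours thus fell at separate levels: vector tumour 1 lay inside the adjacent range, vector tumour 9 above it and the mA3 tumours far above. Over both plasmids the log2 difference was 2.05 ± 0.32 (adjusted p = 0.0203), a mean of unlike tumours.

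Dusp6 (chromosome 10, 99263231 to 99267488, plus strand) encodes the cytoplasmic phosphatase most selective for ERK. Its levels were 49.1 and 44.7 CPM in vector adjacent 1 and 9, and 63.6 and 40.5 CPM in mA3 adjacent 1 and 2. Its tumours measured 41.7 and 140 CPM in vector mice 1 and 9 and 104 and 83.7 CPM in mA3 mice 1 and 2. All tumours but vector tumour 1 were above the adjacent range. The log2 difference of 0.90 ± 0.38 did not pass (adjusted p = 0.203, unadjusted p = 0.0423), and it moved with either vector tumour: it was 1.21 (adjusted p = 0.0266) without vector tumour 1 and 0.33 (adjusted p = 0.516) without vector tumour 9.

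The Sprouty proteins block signalling between receptors and Raf. Spry2 (chromosome 14, 105891949 to 105896819, minus strand) measured 1.35 and 1.96 CPM in vector adjacent 1 and 9 and 1.39 and 1.03 CPM in mA3 adjacent 1 and 2. Its tumours measured 2.12 and 9.28 CPM in vector mice and 9.05 and 9.24 CPM in mA3 mice. Vector tumour 1 stood just above the adjacent range, and the other tumours lay close together well above it. The log2 difference was 2.34 ± 0.48 (adjusted p = 0.0385).

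Spry1 (chromosome 3, 37639947 to 37644598, plus strand) measured 4.41 and 7.53 CPM in vector adjacent 1 and 9 and 4.79 and 4.19 CPM in mA3 adjacent 1 and 2. The tumours measured 4.41 and 13.7 CPM in vector mice and 18.1 and 10.5 CPM in mA3 mice, so that vector tumour 1 equalled its own adjacent liver and the other tumours exceeded all adjacent libraries. The log2 difference of 1.14 ± 0.40 did not pass (adjusted p = 0.145). It was 1.43 (adjusted p = 0.0338) without vector tumour 1 and 0.61 (adjusted p = 0.377) without vector tumour 9. GENCODE places a gene of the opposite strand across 710 of its 2906 exon bases, so its reads too may include those of an overlapping gene.

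Spry4 (chromosome 18, 38586268 to 38601268, minus strand) measured 10.9 and 3.92 CPM in vector adjacent 1 and 9, 12.7 and 15.7 CPM in mA3 adjacent 1 and 2, 10.3 and 19.8 CPM in vector tumour 1 and 9, and 14.0 and 18.2 CPM in mA3 tumour 1 and 2. Adjacent liver and tumour overlapped broadly, with vector adjacent 9 the lowest library. The log2 difference was 0.60 ± 0.36 (adjusted p = 0.374), the 95% interval running from -0.24 to 1.43.

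Spred proteins bind neurofibromin, which returns Ras to its inactive form. Spred2 (chromosome 11, 19924375 to 20024026, plus strand) measured 10.8 and 8.39 CPM in vector adjacent 1 and 9 and 14.5 and 9.95 CPM in mA3 adjacent 1 and 2. Tumours measured 15.0 and 29.3 CPM in vector mice and 34.1 and 35.9 CPM in mA3 mice. The groups did not overlap, although vector tumour 1 was only just above mA3 adjacent 1, and the log2 difference was 1.36 ± 0.27 (adjusted p = 0.038). Spred1 (chromosome 2, 117121374 to 117182279, plus strand) ran from 12.9 to 28.9 CPM in adjacent liver and from 16.2 to 40.0 CPM in tumour, and its log2 difference of 0.59 ± 0.32 did not pass (adjusted p = 0.316). In vector mouse 1 the tumour, at 16.2 CPM, was below its adjacent liver, at 28.9 CPM.

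Etv4 and Etv5 encode Ets factors of the PEA3 group, which growth factor signalling induces in many tissues. Etv4 (chromosome 11, 101769742 to 101785371, minus strand) was nearly silent in adjacent liver, with 1 and 6 reads in vector adjacent 1 and 9 and 2 and 1 reads in mA3 adjacent 1 and 2. The tumours held 16 and 44 reads in vector mice and 38 and 96 reads in mA3 mice, which was 0.917 to 3.98 CPM against 0.0502 to 0.471 CPM. Every tumour was above every adjacent library. The log2 difference was 3.94 ± 0.74 (adjusted p = 0.0323). With so few reads a ratio of summed counts is the plainer measure: 194 reads in tumours against 10 in adjacent liver, scaled for library size, gave 17.0-fold with an exact 95% interval of 9.06 to 36.1 that covers counting error only.

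Etv5 (chromosome 16, 22381309 to 22439719, minus strand) measured 3.66 and 1.33 CPM in vector adjacent 1 and 9 and 4.10 and 3.84 CPM in mA3 adjacent 1 and 2. Its tumours measured 5.10 and 8.40 CPM in vector mice and 17.2 and 16.1 CPM in mA3 mice. The groups did not overlap, the mA3 tumours were highest, and the log2 difference was 1.74 ± 0.35 (adjusted p = 0.0385).

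These calls rested on few libraries, as did those over all genes. Leaving out mA3 adjacent 1 or 2 or mA3 tumour 1 lost every call among the 10 (edgeR). All or nearly all calls over all genes were lost with them. Each such fit leaves a group of 1 library. Without mA3 tumour 2 Dusp5 was called among the 10, with 136 of all genes. Without vector tumour 9 Dusp4 and Dusp5 were called (260 of all genes), without vector adjacent 1 Dusp5 and Etv5 (240), without vector adjacent 9 Dusp4, Dusp5, Etv4 and Etv5 (477), and without vector tumour 1 8 of the 10 (1622). With the mouse as a block, 4 of the 10 were called and 879 of all genes, against 696 without it. Spred2 and Etv5 then missed the threshold (adjusted p = 0.0526 for each). Among 18 alternatives, the call was lost in 11 for Spred2, 10 for Spry2, 8 for Etv4, 6 for Etv5, 5 for Dusp4 and 3 for Dusp5.

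**Figure D2:**
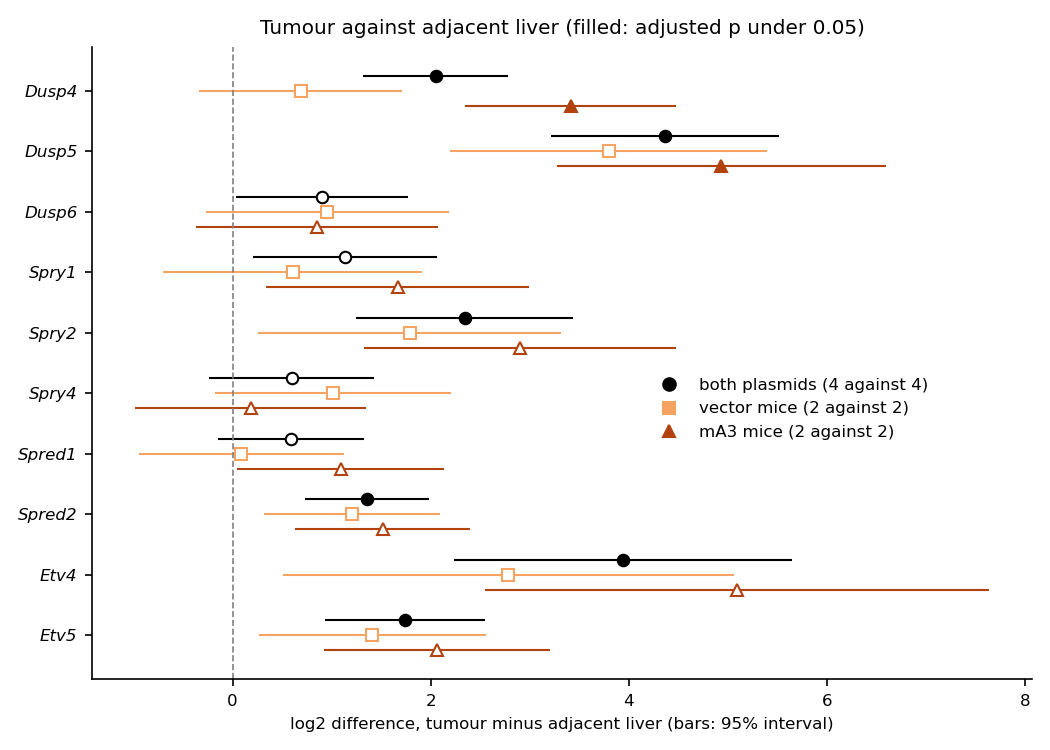
Fitted log2 difference between tumour and adjacent liver for each gene, with 95% intervals as bars, over both plasmids (4 against 4 libraries) and within vector and mA3 mice (2 against 2), filled where the adjusted p was under 0.05. Over both plasmids the values run from 0.59 for Spred1 to 4.36 for Dusp5, and Dusp4 shows the widest gap between vector mice (0.69) and mA3 mice (3.41).

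Within single mice, the tumour differed from its own adjacent liver to unequal degrees. On the log2 scale with 0.5 CPM added, the median over the 10 genes was 0.24 in vector mouse 1, 1.69 in vector mouse 9, 1.88 in mA3 mouse 1 and 1.87 in mA3 mouse 2. All 10 genes were higher in the tumour in each of the latter 3 mice. In vector mouse 1, Dusp6 (-0.23), Spry4 (-0.08) and Spred1 (-0.82) were lower, Spry1 was level, and Dusp5 (2.32) and Etv4 (1.37) were the most raised. Vector tumour 1 also stood near adjacent liver over all genes, at -31.8 on the first principal component (50.7% of variance), where the adjacent libraries lay between -61.2 and -42.5 and the other tumours between 60.7 and 102.

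**Figure D3:**
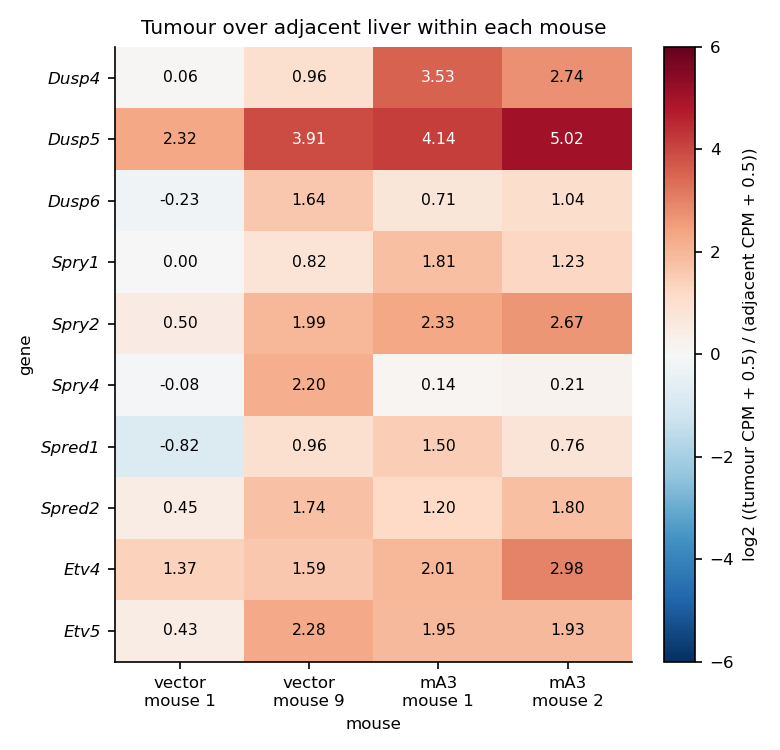
Difference between tumour and adjacent liver within each of the 4 mice for each gene, as log2 with 0.5 CPM added to both values. The column of vector mouse 1 is palest, with values from -0.82 to 2.32, and the other columns hold no value below 0.

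In vector mice alone, none of the 10 genes passed (edgeR), and 0% of all genes were called. At an unadjusted p under 0.05, 5 of the 10 were higher, against 5.28% of all genes. Dusp5 was furthest from 0, with a log2 difference of 3.80 ± 0.70 (adjusted p = 0.435). DESeq2 called Dusp5 alone among the 10, and limma on FPKM and voom called none. The median of the 10 was 1.11, and in 6 of the 10 both tumours exceeded both adjacent libraries, against 18.2% of all genes. The estimate of Dusp5 was 4.49 (adjusted p = 0.0164) without vector tumour 1 and 2.38 (adjusted p = 0.591) without vector tumour 9. Each of these sets 1 tumour library against 2 adjacent ones and takes its spread from the other groups.

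In mA3 mice, Dusp4 (log2 difference 3.41 ± 0.46, adjusted p = 0.0334) and Dusp5 (4.93 ± 0.72, adjusted p = 0.0343) rose. These were 2 of 10, where 1.19% of all genes were called and 0.786% were called higher. In 9 of the 10, both tumours exceeded both adjacent libraries, against 29.7% of all genes, and Spry4 was the exception. The median was 1.87. With the mouse as a block 4 of the 10 and 560 of all genes passed, Spry2 (2.91, adjusted p = 0.0431) and Etv4 (4.95, adjusted p = 0.038) joining, against 178 of all genes without it. With any 1 of the 4 mA3 libraries left out, which leaves a group of 1 library, no gene passed, within the 10 or outside them. Without vector adjacent 1 or 9, 4 of the 10 passed (236 and 308 of all genes), and without vector tumour 1 or 9, 6 passed (1090 and 1074 of all genes). The results in vector and mA3 mice come from different animals, but the spread was estimated over all 8 libraries.

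The comparisons of plasmids address what APOBEC3B does in liver carcinoma, the subject given by the study's title. The labels do not name Apobec3, which was taken here as the gene meant. It measured 2.71 and 9.96 CPM in vector adjacent liver and 45.0 and 35.1 CPM in mA3 adjacent liver. In tumours it measured 7.85 and 15.2 CPM under vector and 10.6 and 15.3 CPM under mA3. Apobec3 messenger RNA thus separated the plasmids in adjacent liver and not in tumours, and directions for tumours labelled mA3 rest on the labels.

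In tumours labelled mA3 against vector tumours, none of the 10 genes passed (edgeR), and 0% of all genes were called. At an unadjusted p under 0.05, Dusp4 and Etv5 were higher, where 6.22% of all genes were. Dusp4, at 19.4 and 22.9 against 2.01 and 3.98 CPM, had a log2 difference of 2.82 ± 0.45 with a 95% interval from 1.79 to 3.85. It ranked 7 among the 15009 genes by p, at an adjusted p of 0.268. DESeq2 called it (adjusted p = 2.6e-05, 1 of 10 called), as did edgeR with no filter on low counts and edgeR without vector tumour 9 (adjusted p = 0.0361). Over all its alternatives the adjusted p of Dusp4 ran from 6.22e-06 to 0.846. Etv5 had a log2 difference of 1.30 ± 0.48 (adjusted p = 0.317). All 10 estimates were above 0, as were 48.7% of all genes, and their median was 0.68, but that of Dusp6 (0.05) turned to -0.01 with upper-quartile scaling. In Dusp4, Dusp5, Spred1, Spred2 and Etv5 both mA3 tumours exceeded both vector tumours, against 27.8% of all genes. With vector mouse 9 left out, Dusp4, Dusp5, Spry2 and Etv5 passed (1748 of all genes), and with vector mouse 1 left out none did (17 of all genes), a check chosen after seeing the data. Each leaves a vector tumour group of 1 library, which is assumed to vary like the other groups, and without mouse 9 that library is vector tumour 1.

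In adjacent liver no difference between plasmids was detected in the 10 genes. None passed or had an unadjusted p under 0.05 (edgeR). Over all genes 0% were called, and 0.533% were higher and 0.5% lower at an unadjusted p under 0.05. DESeq2 called none of the 10, and the median log2 difference was 0.02. The estimates ran from -1.51 ± 1.24 for Etv4, which rests on 10 reads, to 0.92 ± 0.52 for Spry4, and every 95% interval included 0. For Dusp4 the difference was 0.09, with a 95% interval from -0.94 to 1.13.

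Whether the tumour difference itself depended on the plasmid was tested as an interaction. None of the 10 passed (edgeR), and 0% of all genes were called. Dusp4 had the largest estimate, 2.73 ± 0.63 on the log2 scale (unadjusted p = 0.00237, rank 13 of 15009, adjusted p = 0.842), and it was called only with no filter on low counts (adjusted p = 0.0152) among the alternatives run. At an unadjusted p under 0.05 it was the only one of the 10, where 2.03% of all genes were higher, and for the other 9 that p was 0.154 or more. DESeq2 called none of the 10.

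Per length, the order of the genes changed between tissues. In adjacent liver Dusp6 was highest at 17.5 ± 4.12 FPKM (fragments scaled to gene length and library size, SD, n = 4), and its lowest library, 14.7 FPKM, exceeded every library of the other 9. Spred1 (2.81), Spry4 (2.34), Spry1 (1.55) and Spred2 (1.54 FPKM) followed with overlapping ranges. Dusp4 (0.694), Spry2 (0.678) and Dusp5 (0.636 FPKM) could not be ordered among themselves, Etv5 (0.451 FPKM) overlapped them, and Etv4 (0.0275 ± 0.0325 FPKM) lay below all. In tumours Dusp6 (33.7 ± 15.0 FPKM) and Dusp5 (14.6 ± 8.25 FPKM) had the highest means, with ranges of 14.4 to 50.5 and 3.33 to 22.9 FPKM that overlapped. Dusp5 thus went from the eighth to the second place by mean level. The means of Dusp4, Spred1, Spred2, Spry2, Spry1 and Spry4 lay between 3.45 and 4.55 FPKM with overlapping ranges, and Etv5 (1.69) and Etv4 (0.388 FPKM) were lowest.

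The genes upstream and beside these feedback genes are given from lists chosen by function. Of 18 tested growth factor ligands 4 rose and 2 fell (median log2 difference 0.73). Nrg1, an ErbB3 and ErbB4 ligand, rose by a log2 difference of 4.72 ± 0.74 (adjusted p = 0.0207), from 0.150 to 0.618 CPM in adjacent liver to 1.09 to 17.8 CPM in tumours. The EGF receptor ligands Areg (5.86 ± 1.07, adjusted p = 0.0358) and Hbegf (2.76 ± 0.62, adjusted p = 0.0475) and the platelet growth factor chain Pdgfb (1.66 ± 0.38, adjusted p = 0.0499) also rose. Areg was barely detected in adjacent liver, at 0 to 0.174 CPM, and reached 0.229 to 13.3 CPM in tumours. Igf1, which hepatocytes secrete, fell by 2.45 ± 0.41 on the log2 scale (adjusted p = 0.0246), and Fgf1 fell by 1.17 ± 0.25 (adjusted p = 0.0436).

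Of 16 receptors and co-receptors 1 rose (median -0.12): Fgfr2, at 26.2 to 42.0 CPM in adjacent liver and 55.6 to 105 CPM in tumours (1.14 ± 0.21, adjusted p = 0.0323). With the mouse as a block, Fgfr2 (adjusted p = 0.0513) and Hbegf (adjusted p = 0.0568) no longer passed. Over 18 alternatives, the call was lost in 13 for Pdgfb, 12 for Hbegf, 12 for Fgf1, 9 for Areg, 7 for Fgfr2, and 5 each for Nrg1 and Igf1. None of 14 adaptors, Ras proteins and exchange factors passed (median -0.02), the adaptor Shc1 having the smallest p (0.65 ± 0.20, adjusted p = 0.112). None of 14 Raf, MEK, ERK and scaffold genes passed (median -0.12), and the Raf inhibitor gene Pebp1 had the smallest p (-1.03 ± 0.32, adjusted p = 0.107). Of 10 Ras GTPase-activating protein genes 1 rose (median 0.55), Rasal1, with a log2 difference of 6.20 ± 1.06 (adjusted p = 0.0249).

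None of 7 other MAP kinase phosphatase genes passed (median 0.44), with the ERK phosphatase Dusp7 nearest (0.93 ± 0.27, adjusted p = 0.0945). Of 15 other family members and ERK-inducible genes 2 rose (median 0.86). The immediate-early factor Egr1 went from 5.42 to 26.1 CPM in adjacent liver to 81.1 to 581 CPM in tumours (4.17 ± 0.63, adjusted p = 0.0199), and the TWEAK receptor gene Tnfrsf12a from 6.04 to 8.63 CPM to 12.4 to 98.8 CPM (3.16 ± 0.49, adjusted p = 0.0207). Of 17 other Ets factor genes 1 rose (median 0.22), the epithelial factor Elf3 (2.87 ± 0.56, adjusted p = 0.0362). Over the same 18 alternatives the call was lost in 10 for Elf3, 7 for Rasal1, and 4 each for Egr1 and Tnfrsf12a. The estimates there ran from 0.43 to 3.12 for Elf3 and from 2.61 to 7.47 for Rasal1. The percentage of all genes called, 4.64%, with 2.94% higher and 1.69% lower, is the background of these counts.

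**Figure D4:**
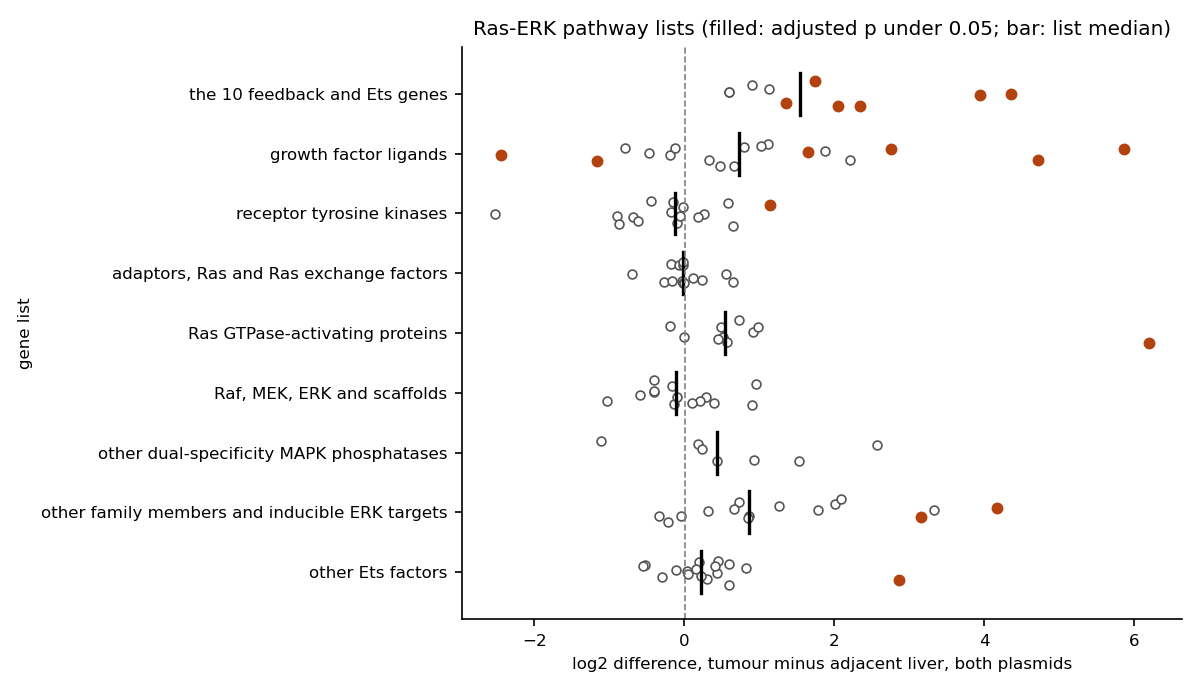
Log2 difference between tumour and adjacent liver over both plasmids for each tested gene of the 10 and of the 8 pathway lists, with called genes filled and list medians marked. The median of the 10 genes, 1.55, lies above those of the pathway lists, which run from -0.12 to 0.86.

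Levels of markers of cell types and of proliferation are given beside these results. The summed level of 12 proliferation markers was 11.8 to 36.2 CPM in adjacent liver and 31.8 to 105 CPM in tumours. All 12 were above 0 in log2 difference (median 1.97) and none passed, with 11 at an unadjusted p under 0.05 (edgeR). Of all genes, 50.5% were above 0 and 11.9% were higher at that unadjusted threshold. The summed level of 10 bile duct markers was 64.8 to 72.8 CPM in adjacent liver and 139 to 638 CPM in tumours, although Cldn4 and Cftr had no reads in some libraries. Of the 7 tested, 6 were above 0 and 1 passed. The 12 macrophage markers summed to 287 to 759 CPM in adjacent liver and 133 to 349 CPM in tumours, and 2 fell. Endothelial (345 to 423 against 353 to 476 CPM), stellate cell (177 to 293 against 134 to 411 CPM) and T and B cell markers (19.6 to 39.3 against 28.5 to 38.8 CPM) overlapped between tissues in summed level. None of these markers passed. At an unadjusted p under 0.05 in either direction (edgeR) there were 3 of 12 endothelial, 8 of 12 stellate cell and 0 of 11 T and B cell markers. Over all genes, 3366 of 15009 met that threshold. Log2 differences were above 0 in 8 of 12 endothelial, 8 of 12 stellate cell and 4 of 11 T and B cell markers, against 50.5% of all genes. The same unadjusted threshold was met by 7 of 12 hepatocyte, 5 of 12 macrophage and 2 of 7 bile duct markers. Of these, 7 of 12 hepatocyte and 0 of 12 macrophage markers had a log2 difference above 0 in the full lists. Of 10 liver tumour markers 6 rose (30.8 to 132 against 119 to 1823 CPM summed). The 12 hepatocyte markers had reads in every library, at 53964 to 127423 CPM summed in adjacent liver and 102813 to 224347 CPM in tumours, and 1 rose. The part of cell composition in the tumour differences of the 10 genes was not tested.

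Genes with patterns most like 3 of the 10 were sought among 12916 genes by the mean absolute difference of centred log2 CPM over the 8 libraries. For Dusp6 the nearest were Vim (0.11) and Mob3b (0.14). For Spry4 they were Lasp1 (0.22), Tpmt (0.23) and Isg20 (0.24). For Etv5 they were Uggt2 (0.11), Akr1b3 (0.16) and Smpd3 (0.18). The libraries share mice and tissue, so the likeness is a description.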

How the data were processed

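RNA-seq counts and FPKM values for 8 libraries were taken as deposited by the authors. Per the labels' protocols, RNA was extracted with Trizol and standard Illumina libraries were made. No source used here states the aligner, the counter or the strand setting. Per the submitters' processing notes, the build was mm8 and the software Agilent Feature Extraction 10.7, which is microarray software, whereas 81.6% of the 34267 gene identifiers found in GENCODE vM21 (GRCm38) had loci within 1 bp of it. The deposited FPKM values equalled counts over library total and gene length within 1%, tested on the 7555 genes whose counts reached 100 throughout.

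Counts were analysed with edgeR 4.0.16 (R 4.3.3): filterByExpr by group, TMM factors and a quasi-likelihood fit of 4 group coefficients to all 8 libraries (4 residual degrees of freedom, biological coefficient of variation 39.1%), with Benjamini-Hochberg adjustment over 15009 genes and calls at an adjusted p under 0.05. All tests were two-sided. Standard errors came from the F statistic. Alternatives used limma 3.58.1, DESeq2 1.42.0, other scaling, no filter, a mouse block and left-out libraries. The scripts were tested on simulated data. Tumour and adjacent libraries with the same plasmid and number were taken as 1 mouse, from the titles. Their deviations from group means correlated at 0.107 in vector and 0.175 in mA3 mice. Nothing else in the labels says that the numbers are separate animals, so p-values measure the spread between these samples.

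The members and lists were chosen with earlier results of these data known. From each list, up to 4 called genes per direction were named, or the gene with the smallest p where none was called. The 3 nearest pattern neighbours were sought among genes with a mean of at least 1 CPM, and some genes of the lists and neighbours are not reported here. Promoters came from RefSeq (GRCm38.p6) and were cut before the deposited gene start.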

Additional observations from a re-analysis of the deposited data

Results flagged for a closer look

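In 3 cases 1 library stood apart from the other 3 of its tissue, by a gap over the 95% critical value of Dixon's test. Chance gives about 1 such case in 20 groups, and 20 groups of 4 were examined here. Spry2 was 2.12 CPM in vector tumour 1, below the other tumours at 9.05 to 9.28 CPM. Etv4 was 0.471 CPM in vector adjacent 9, above the other adjacent libraries, and rests on 6 reads. Etv5 was 1.33 CPM in vector adjacent 9, below the other adjacent libraries at 3.66 to 4.10 CPM. Without vector adjacent 9, the log2 difference of Etv4 between tumour and adjacent liver over both plasmids was 4.99 and that of Etv5 was 1.47, and both passed.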

How the results depend on the processing

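Dusp4 and Dusp5 were called in tumour against adjacent liver over both plasmids under every scaling, filter, test and unit tried, with the mouse block and without vector mouse 1 or 9, but not with every single library left out. Of 10 genes, 3 were called with log2(FPKM + 1), and 4 each with voom and with log2(FPKM + 0.1). Voom lost Spry2 and Etv4, and log2(FPKM + 0.1) lost Spry2 and Spred2. Over all genes, 696 calls became 2450 with no filter, 1871 with DESeq2, 458 with voom and 2092 without vector mouse 1. In vector mice, members called were 2 with no filter and 1 with DESeq2 or without vector mouse 1, and 674, 229 and 130 of all genes were called. In mA3 mice, members called were 7 with no filter, 6 with DESeq2, 1 with voom and 7 with only the 4 libraries compared or without vector mouse 1 or 9. Over all genes, the counts there were 99 with upper-quartile factors, 2063 with no filter, 1556 with DESeq2, 111 with voom, 349 and 395 with log2(FPKM + 0.1) and log2(FPKM + 1), 2269 with only the 4 libraries, and 2197 and 2196 without vector mouse 1 and 9. For mA3 against vector tumours, 1 member was called with no filter or DESeq2 and 4 without vector mouse 9, and 1084 of all genes were called with no filter, 477 with DESeq2, and 17 and 1748 without vector mouse 1 and 9. In adjacent liver 56 of all genes were called with no filter and 21 without vector mouse 1. For the interaction, 1 member and 316 of all genes were called with no filter, and 11 of all genes with DESeq2. Leaving out a vector mouse was chosen after seeing the data. With 1 library left out at a time, members called ran from 0 to 8 over both plasmids, 0 to 6 in mA3 mice, 0 to 1 in vector mice and 0 to 1 for plasmids in tumours, and counts over all genes from 0 to 1622, 0 to 1090, 0 to 142 and 0 to 270. In the adjacent comparison and the interaction they stayed at 0.

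With the replicate block (the mouse), 4 members were called in mA3 mice and 560 of all genes, 4 members over both plasmids, and the interaction of Dusp6 turned to 0.17. No paired analysis was possible for the comparisons of plasmids because the groups share only 1 number, which was taken to mark different mice.

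No estimate of tumour against adjacent liver over both plasmids changed sign for any of the 10 genes. Signs changed elsewhere in estimates that had not passed, and the cause was not tested. For plasmids in tumours, Dusp6 was -0.0051 with upper-quartile factors, and without vector mouse 1 Dusp6 was -0.58, Spry2 -0.024 and Spry4 -0.31. For plasmids in adjacent liver, Dusp5 was 0.015 with upper-quartile factors, 0.024 with log2(FPKM + 0.1) and 0.012 with log2(FPKM + 1). There, Spred1 was 0.20 without vector mouse 1, and without vector mouse 9 Dusp5 was 0.26, Spry1 0.0199 and Etv4 0.60. In vector mice without mouse 9, Dusp6 was -0.25, Spry1 -0.014, Spry4 -0.10 and Spred1 -0.85. For the interaction, Dusp6 was 0.18 with voom, 0.12 and 0.11 with log2(FPKM + 0.1) and log2(FPKM + 1) and 1.10 without vector mouse 9. The interaction of Spry4 was 0.28 without vector mouse 9, and those of Spred2 and Etv5 were -0.32 and -0.61 without vector mouse 1.

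With 1 library left out at a time, estimates for plasmids in adjacent liver ran from -0.29 to 0.39 for Dusp4, -0.49 to 0.26 for Dusp5, -0.23 to 0.43 for Dusp6, -2.47 to 0.60 for Etv4, -0.81 to 0.17 for Spred1 and -0.74 to 0.0198 for Spry1. In tumours they ran from -0.58 to 1.18 for Dusp6, -0.0225 to 2.11 for Spry2 and -0.31 to 0.65 for Spry4. The interaction ran from -0.73 to 1.03 for Dusp6, -0.27 to 1.19 for Etv5 and -0.0906 to 0.89 for Spred2. In vector mice the range was -0.18 to 1.58 for Dusp6, -0.49 to 0.57 for Spred1 and -0.44 to 1.20 for Spry1, and in mA3 mice it was -0.0198 to 0.36 for Spry4. Depth limits Etv4 most, with 10 reads in adjacent liver.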
